A study of Mus musculus with 6 samples.

Results

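The transcripts described here encode 10 enzymes and enzyme partners that make or clear prostaglandins and leukotrienes: Ptgs1, Ptgs2, Ptgds, Ptges, Hpgd, Alox5, Alox5ap, Alox12, Alox15 and Ltc4s. They were taken by gene symbol from the 22322 genes of the deposited expression table, and each symbol matched 1 row. They were measured in epididymal white adipose tissue, the visceral fat pad beside the epididymis, by RNA sequencing of 3 CD44 KO and 3 wild type libraries. The CD44 KO mice lack CD44, a cell surface receptor for the matrix sugar hyaluronan, and the labels do not say how the knockout was made. All mice of both genotypes ate a high fat diet over 17 weeks, so no library comes from lean animals. Ages are not labelled, nor whether each library is a separate mouse, so the p-values below measure the spread between these libraries.

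Prostaglandins and leukotrienes are short-lived lipid signals made from arachidonic acid that phospholipases free from membranes. Cyclooxygenases turn it into prostaglandin H2, from which terminal synthases make prostaglandin E2, prostaglandin D2 and other products. A dehydrogenase inactivates some of these products. Lipoxygenases start the other branch, in which 5-lipoxygenase and its partner protein lead to the leukotrienes, known from leukocytes. In fat, prostaglandin E2 is known to restrain lipolysis, and prostaglandin D2 and its products are known to act on adipocyte differentiation.

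Library depth was 15543317 to 18765009 expected counts (read counts estimated per gene). The targeted gene Cd44 had 28, 50 and 34 expected counts in CD44 KO replicates 1 to 3, against 3091, 10580 and 6000 in wild type replicates 1 to 3. All 8 adipocyte markers examined were detected, with a summed level of 28622 to 46858 CPM (counts scaled to library size after TMM normalisation) in CD44 KO and 9981 to 27322 CPM in wild type. A pair of CD44 KO libraries stood apart. Replicate 2 held transcripts of the epididymis, with 11362 CPM summed over 11 markers, against 14.3 and 7.44 CPM in CD44 KO replicates 1 and 3 and 1.02 to 1.77 CPM in wild type. Crisp1 made up 9623 CPM of that sum, and Crisp4, Lcn5, Adam7, Rnase9 and Ovch2 also had their highest counts there. Lcn8, Rnase10 and Cst8 had only 1, 5 and 7 expected counts in that library, and Lcn9 and Spag11b had 0. Replicate 1 had a summed level of 8 macrophage markers of 3769 CPM, against 235 and 717 CPM in CD44 KO replicates 2 and 3, and 3251, 7693 and 5556 CPM in wild type replicates 1 to 3. Where leaving out either library changed a call of an enzyme, or of a gene of the same pathways named below, this is stated.

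None of the 9 enzymes that could be tested passed the edgeR quasi-likelihood test at a Benjamini-Hochberg adjusted p under 0.05, the threshold for a call throughout, and 2.62% of all 13829 genes tested did, 1.74% higher and 0.882% lower in CD44 KO. The lowest adjusted p was that of the lipoxygenase gene Alox12 (log2 fold change 1.43, adjusted p 0.0522). At an unadjusted edgeR p under 0.05, 4 of the 9 were higher in CD44 KO (Ptgds, Ptges, Hpgd and Alox12) and 0 were lower, beside 31% of all genes in either direction. These 4 were higher in every CD44 KO library than in any wild type library, and Alox5 was lower in every one, while such separation held for 37.8% of all genes tested, 19.7% higher and 18.1% lower. The median log2 fold change of the 9 was 0.85, and that of all genes tested was 0.03. Without CD44 KO replicate 1 edgeR called 4 of the 9, Ptgds, Ptges and Alox12 higher and Alox5ap lower, where 16.8% of all genes were called. With any other single library left out 0 were called, beside 0.714% of all genes in the fit lacking CD44 KO replicate 2, 0.0493% in that lacking CD44 KO replicate 3, and 2.18%, 0.0633% and 0% without wild type replicates 1, 2 and 3. DESeq2 called 3, Ptges, Hpgd and Alox12, all higher, with 19% of all genes called. A limma fit on log2 FPKM called 1, Alox12, with 3.75% of all genes called at a pseudocount of 0.1 and 3.51% at 1. Other settings of edgeR called 0 enzymes, beside 2.64% of all genes with DESeq2 size factors, 2.21% with total-count scaling and 1.24% with no filter on low counts.

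**Figure D1:**
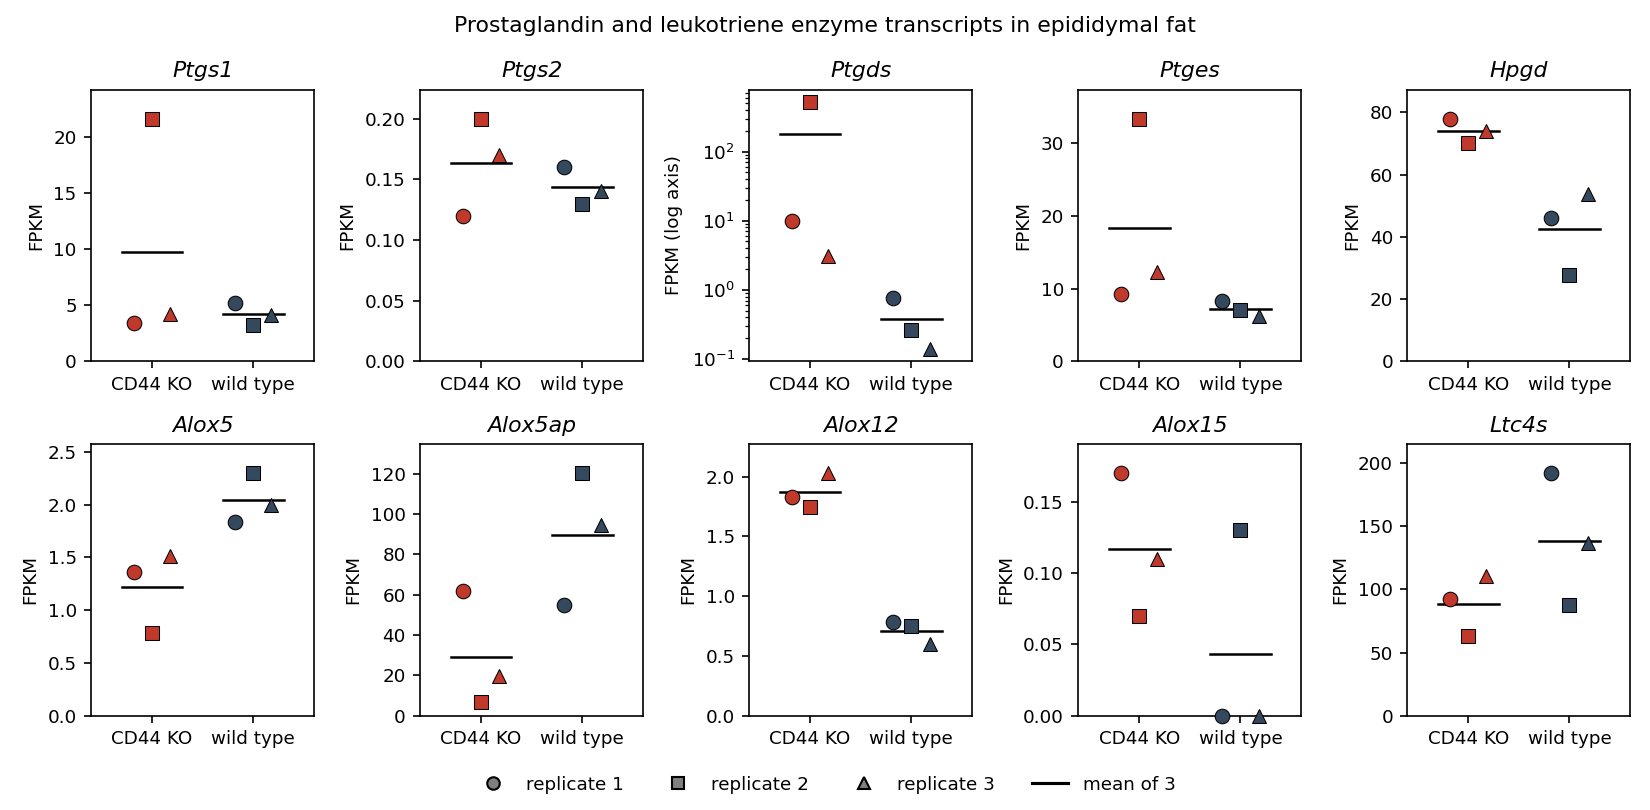
Levels of the 10 transcripts in the authors' FPKM (fragments scaled for transcript length and library size), 1 panel per gene, with CD44 KO libraries in red on the left and wild type libraries in dark blue on the right. Marker shapes give the replicate number and bars the mean of 3; the Ptgds axis is logarithmic and all others start at 0. Ptgs1, Ptgds and Ptges each have their highest point in CD44 KO replicate 2, while Alox12 and Hpgd separate the genotypes with little spread in CD44 KO.

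By median FPKM, the most abundant of the enzymes in CD44 KO fat were Ltc4s, Hpgd and Alox5ap, at 92.4, 74.1 and 19.5. In wild type fat they were Ltc4s, Alox5ap and Hpgd, at 136, 94.5 and 46.0. The ranges of Ltc4s and Hpgd overlapped in CD44 KO, as did those of Ltc4s and Alox5ap in wild type, so these neighbours in the order did not differ beyond their spread. The place of Alox5ap in CD44 KO was not separate either, since its range of 6.66 to 61.6 FPKM overlapped those of Ptges, Ptgds and Ptgs1, and in replicate 2 it lay below all 3. Ptges, Ptgds and Ptgs1 followed in CD44 KO, with medians of 12.3, 10.03 and 4.24 FPKM and ranges that overlapped, above Alox12 at 1.83 and Alox5 at 1.36. In wild type, Ptges at 7.06, Ptgs1 at 4.13, Alox5 at 2.00 and Alox12 at 0.75 had ranges apart from each other. Ptgs2 and Alox15 were the scarcest, with medians of 0.17 and 0.11 FPKM in CD44 KO and 0.14 and 0 in wild type, and their ranges overlapped in CD44 KO. Ptgds changed its place most. Its level was 10.03, 522 and 3.13 FPKM in CD44 KO replicates 1 to 3, above Ptgs1 in 2 of those libraries, and 0.75, 0.26 and 0.14 FPKM in wild type, below Ptgs1 in every library.

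Upstream sequences are shown for 4 genes, Ptgs1, Ptgds and Ptges because their highest levels fell in the same library, and Alox12 because it had the lowest p. RefSeq promoters on GRCm38.p6 matched 8 of the 10 symbols. Each sequence is read 5′ to 3′ on the gene's strand and ends at the base before the RefSeq start, except that of Ptgds, which stops where an annotated exon begins. The Ptgds and Ptges stretches lie inside the annotated gene spans given below, so they are upstream of the RefSeq start only. Capitals mark matches on either strand to 8 short motifs. The general ones are the TATA box, spelled TATAAA, and the GC box, spelled GGGCGG. The E-box is CACGTG and the cyclic AMP response element is TGACGTCA. For C/EBP factors TTGCNNAA was searched, and for the myeloid factor PU.1, GAGGAAG. The core of nuclear receptor sites is AGGTCA, and that of steroid receptor sites is AGAACA. The Ptgs1 stretch (chr2:36230176-36230425, plus strand) holds the reverse complement of AGAACA, and GAGGAAG. The Ptges stretch (chr2:30903298-30903547, minus strand) holds AGAACA and GGGCGG at 2 places. Alox12 (chr11:70255371-70255620, minus strand) holds the reverse complement of AGAACA, and GGGCGG at 2 places. None of the 8 was found in the 157 bases shown for Ptgds (chr2:25469843-25469999, minus strand). No matches overlapped each other in these 4 windows. Of 32851 promoter windows of 250 bases, 16.1% hold AGAACA, 10.6% GAGGAAG and 32.7% GGGCGG, while TATAAA is in 12.4%, CACGTG in 6.02%, TGACGTCA in 1.55%, TTGCNNAA in 9.56% and AGGTCA in 14.0%. These matches describe letters only.
Ptgs1: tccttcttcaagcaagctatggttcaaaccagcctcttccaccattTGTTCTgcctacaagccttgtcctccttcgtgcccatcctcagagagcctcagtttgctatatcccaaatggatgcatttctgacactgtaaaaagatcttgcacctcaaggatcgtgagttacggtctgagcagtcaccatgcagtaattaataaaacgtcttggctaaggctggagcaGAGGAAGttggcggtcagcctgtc
Ptgds: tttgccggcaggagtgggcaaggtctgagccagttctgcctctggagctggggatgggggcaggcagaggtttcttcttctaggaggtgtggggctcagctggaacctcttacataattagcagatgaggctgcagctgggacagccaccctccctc
Ptges: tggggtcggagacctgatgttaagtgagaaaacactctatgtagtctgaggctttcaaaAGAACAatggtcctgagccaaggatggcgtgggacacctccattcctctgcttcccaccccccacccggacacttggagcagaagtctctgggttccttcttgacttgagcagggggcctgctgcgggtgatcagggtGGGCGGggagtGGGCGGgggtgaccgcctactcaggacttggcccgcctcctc
Alox12: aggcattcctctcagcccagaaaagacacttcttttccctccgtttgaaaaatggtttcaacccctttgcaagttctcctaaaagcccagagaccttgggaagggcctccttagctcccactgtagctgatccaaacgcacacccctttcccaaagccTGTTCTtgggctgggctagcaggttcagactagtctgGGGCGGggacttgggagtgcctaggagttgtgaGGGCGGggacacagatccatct

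The cyclooxygenases carry out the first step of prostaglandin synthesis. Ptgs1, the constitutive cyclooxygenase (chromosome 2, 36230426 to 36252272 in GRCm38), was high in 1 library. It had 9.73, 66.2 and 12.2 CPM in CD44 KO replicates 1 to 3, against 14.5, 9.32 and 11.6 CPM in wild type replicates 1 to 3. Only CD44 KO replicate 2 lay outside the wild type range, so the groups overlapped. Its log2 fold change was 1.32 (SE 0.76, 95% interval -0.78 to 3.41, edgeR adjusted p 0.269), and without CD44 KO replicate 2 it was -0.10 (edgeR adjusted p 0.823). That library is the one with epididymis transcripts. Platelets are a known site of Ptgs1, and the 6 platelet markers moved both ways there. Their summed level was lowest in CD44 KO replicate 2, at 25.3 CPM, against 52.7 and 32.7 CPM in CD44 KO replicates 1 and 3 and 54.0 to 71.3 CPM in wild type. Pf4, the most abundant, had its lowest count there (119), while Itga2b and Gp9 had their highest (159 and 76). The part of either tissue in the Ptgs1 level was not tested. In bulk tissue, a change in the number of cells of a type cannot be told apart from a change in RNA per cell.

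Ptgs2, the inducible cyclooxygenase (chromosome 1, 150100031 to 150108227), was close to the limit of detection in both genotypes. It had 9, 16 and 12 expected counts in CD44 KO and 12, 11 and 12 in wild type. A log2 fold change of 0.24 was fitted (SE 0.48, edgeR adjusted p 0.760), with a 95% interval of -1.11 to 1.58, and no difference was detectable at this depth. Per length, the Ptgs1 level was 28.6, 108 and 24.9 times the Ptgs2 level in CD44 KO replicates 1 to 3, and 32.1, 25.1 and 29.5 times in wild type.

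Terminal synthases come next. Of those among the 10 enzymes, Ptges and Ptgds were higher in all CD44 KO libraries without passing the test, while none of the 7 other prostanoid synthases tested was, as described further on. Ptges, the membrane prostaglandin E synthase (chromosome 2, 30889471 to 30929863), had 33.5, 130.2 and 45.1 CPM in CD44 KO and 29.7, 25.7 and 22.1 CPM in wild type. CD44 KO replicate 2 was again far above the rest, and replicate 1 was only slightly above the highest wild type library. The log2 fold change was 1.43 (SE 0.52, 95% interval -0.01 to 2.87, edgeR adjusted p 0.130). Without CD44 KO replicate 2 it was 0.61 (adjusted p 0.169), and without CD44 KO replicate 1 it was 1.76, a call (adjusted p 0.0468).

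Ptgds, the lipocalin-type prostaglandin D synthase (chromosome 2, 25466709 to 25470046), is known for high expression in brain and the male genital tract. It had 135, 7561 and 40 expected counts in CD44 KO replicates 1 to 3 and 10, 4 and 2 in wild type. Scaled to library size this was 8.01, 454 and 2.59 CPM in CD44 KO, against 0.590, 0.216 and 0.104 CPM in wild type. All 3 CD44 KO libraries stood above all wild type libraries, and replicate 2 stood far above the other CD44 KO libraries. The log2 fold change of 8.997 (SE 2.48, 95% interval 2.11 to 15.88, edgeR adjusted p 0.0879) rested on that library for its size. Without CD44 KO replicate 2 it was 4.12 (adjusted p 0.0783). Without CD44 KO replicate 1 it was 9.56 and was called (adjusted p 0.0386). DESeq2 gave no adjusted p for it, and the authors' deposited table lists an adjusted p of 1.

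Some markers of epididymis and mesothelium also had higher counts in CD44 KO libraries. In CD44 KO replicates 1 and 3 the epididymis gene Adam7 had 182 and 78 counts, against 2, 2 and 3 in wild type, and in replicate 2 it had 20088. The epididymis genes Lcn5, Lcn8, Lcn9 and Ovch2 were at 0 counts in CD44 KO replicates 1 and 3, and Crisp1 had 28 and 24 counts there, against 14, 12 and 23 in wild type. Spag11b had 12, 0 and 11 counts in CD44 KO replicates 1 to 3 and 0 in every wild type library. Of the 11 epididymis markers 2 could be tested and 1, Lcn9, was at 0 in every library. The 6 mesothelial markers, of the cells that line the fat pad, summed to 55.1, 57.8 and 35.7 CPM in CD44 KO and 10.1, 11.2 and 3.65 CPM in wild type. All 6 were higher in every CD44 KO library, and edgeR called 1 of them. The part of either tissue in the Ptgds level was not tested.

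Prostaglandin D2 can also be made by the hematopoietic synthase Hpgds, which was chosen after its values were seen because it shares its product with Ptgds. Its levels ran the other way, with 31.99, 0.721 and 4.60 CPM in CD44 KO and 33.7, 151 and 112 CPM in wild type (log2 fold change -2.99, SE 1.27, edgeR adjusted p 0.167). Leaving out CD44 KO replicate 1 gave -5.23, a call (adjusted p 0.0312). Per length, the level of Ptgds was 1.08, 2749 and 2.39 times that of Hpgds in CD44 KO. In wild type it was 0.0762, 0.00597 and 0.00425 times. Hpgds was thus the more abundant in every wild type library and Ptgds in CD44 KO replicates 2 and 3, while in CD44 KO replicate 1 the levels were about equal.

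Hpgd, the dehydrogenase that inactivates prostaglandins (chromosome 8, 56294585 to 56321043), had higher and more even levels in CD44 KO. It had 129.8, 125.9 and 125.5 CPM in CD44 KO and 76.2, 46.7 and 88.7 CPM in wild type. Every CD44 KO library was above every wild type library, and the spread in CD44 KO (SD 2.37 CPM) was smaller than in wild type (SD 21.6 CPM). The log2 fold change was 0.85 (SE 0.25, 95% interval 0.16 to 1.53, edgeR adjusted p 0.0927). Leaving out either library that stood apart gave nearly the same value, 0.83 for CD44 KO replicate 1 and 0.86 for CD44 KO replicate 2. DESeq2 called it (adjusted p 0.0247).

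**Figure D2:**
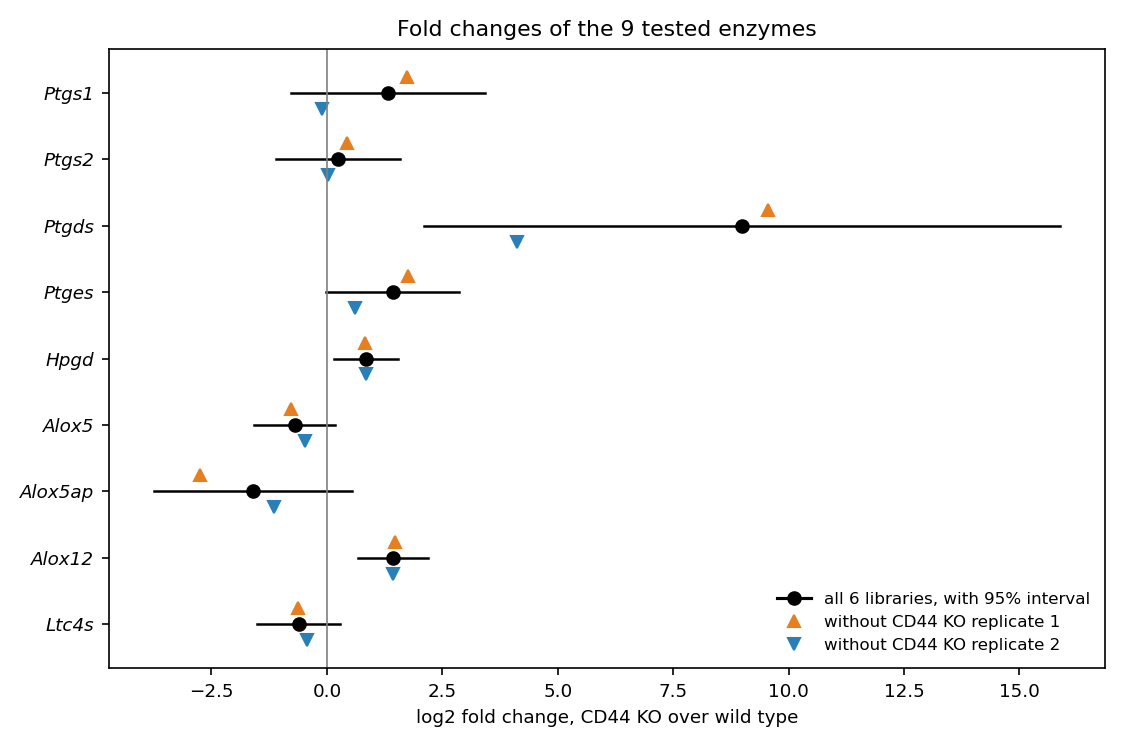
Log2 fold changes of CD44 KO over wild type for the 9 tested enzymes, from the edgeR fit of all libraries (black, with 95% intervals) and from fits without CD44 KO replicate 1 (orange) or without CD44 KO replicate 2 (blue). Alox12 and Hpgd keep nearly the same value in the 3 fits, Ptgds and Ptges are smaller without replicate 2, Ptgs1 is at -0.10 there, and Alox5ap is lowest without replicate 1.

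Leukotriene synthesis begins with Alox5, the 5-lipoxygenase (chromosome 6, 116410077 to 116461178). It had 3.80, 2.34 and 4.27 CPM in CD44 KO and 5.07, 6.25 and 5.53 CPM in wild type. The groups did not overlap, and the gap between CD44 KO replicate 3 and wild type replicate 1 was smaller than the spread within CD44 KO. Its log2 fold change was -0.69 (SE 0.32, 95% interval -1.57 to 0.18, edgeR adjusted p 0.186), and none of 13 alternative fits called it. Neutrophils and eosinophils are known sites of Alox5. The neutrophil markers (7 genes, 3 tested, 0 called) summed to 12.0, 2.34 and 28.4 CPM in CD44 KO and 39.0, 14.2 and 27.3 CPM in wild type. The eosinophil markers (5 genes, 3 tested, 0 called, Ear6 at 0 in every library) summed to 1.42, 0.360 and 1.23 CPM in CD44 KO and 2.54, 7.76 and 8.92 CPM in wild type, with no overlap. Ccr3 gave 6.03 and 7.15 CPM of the sums in wild type replicates 2 and 3. The CD44 KO sums of eosinophil markers rest on few reads. There Siglecf had 3, 0 and 5 expected counts, Ccr3 had 9, 0 and 0, and Prg2 had 12, 6 and 13. In both lists the tested markers disagreed. Log2 fold changes were -4.65 for Ccr3, -2.94 for Siglecf and 0.81 for Prg2 among eosinophil markers. Among neutrophil markers they were -2.47 for S100a8, -0.63 for Csf3r and 2.83 for S100a9. The part of either cell type in the Alox5 level was not tested.

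Alox5ap, the membrane protein that presents arachidonic acid to 5-lipoxygenase (chromosome 5, 149264767 to 149288153), had 76.3, 8.41 and 24.5 CPM in CD44 KO. In wild type it had 67.3, 150.04 and 114.7 CPM. CD44 KO replicate 1 was above wild type replicate 1, so the groups overlapped, while CD44 KO replicates 2 and 3 were below all wild type libraries. The log2 fold change was -1.60 (SE 0.77, 95% interval -3.75 to 0.54, edgeR adjusted p 0.205). Without CD44 KO replicate 1 it was -2.75 and was called (adjusted p 0.0350), and without CD44 KO replicate 2 it was -1.13 (adjusted p 0.261).

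The Alox5ap level put the 6 libraries in the same order as the summed macrophage markers given above, from wild type replicate 2 down to CD44 KO replicate 2. All 8 of these markers were tested, 8 had negative log2 fold changes (median -1.91), and 0 were called by edgeR. The change of Mertk was near 0 (-0.016), with 45.9, 46.5 and 47.2 CPM in CD44 KO and 33.4, 59.9 and 47.8 CPM in wild type. Lyz2 weighed most in the sum, with 2309 CPM in CD44 KO replicate 1. Macrophages are a known site of Alox5ap expression, and the part of their number in the Alox5ap level was not tested. Per length, Alox5ap was 45.3, 8.54 and 12.9 times the Alox5 level in CD44 KO and 29.7, 52.3 and 47.2 times in wild type. Over the 6 libraries Alox5 had a narrower range, 2.34 to 6.25 CPM, than its partner Alox5ap, 8.41 to 150.04 CPM.

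**Figure D3:**
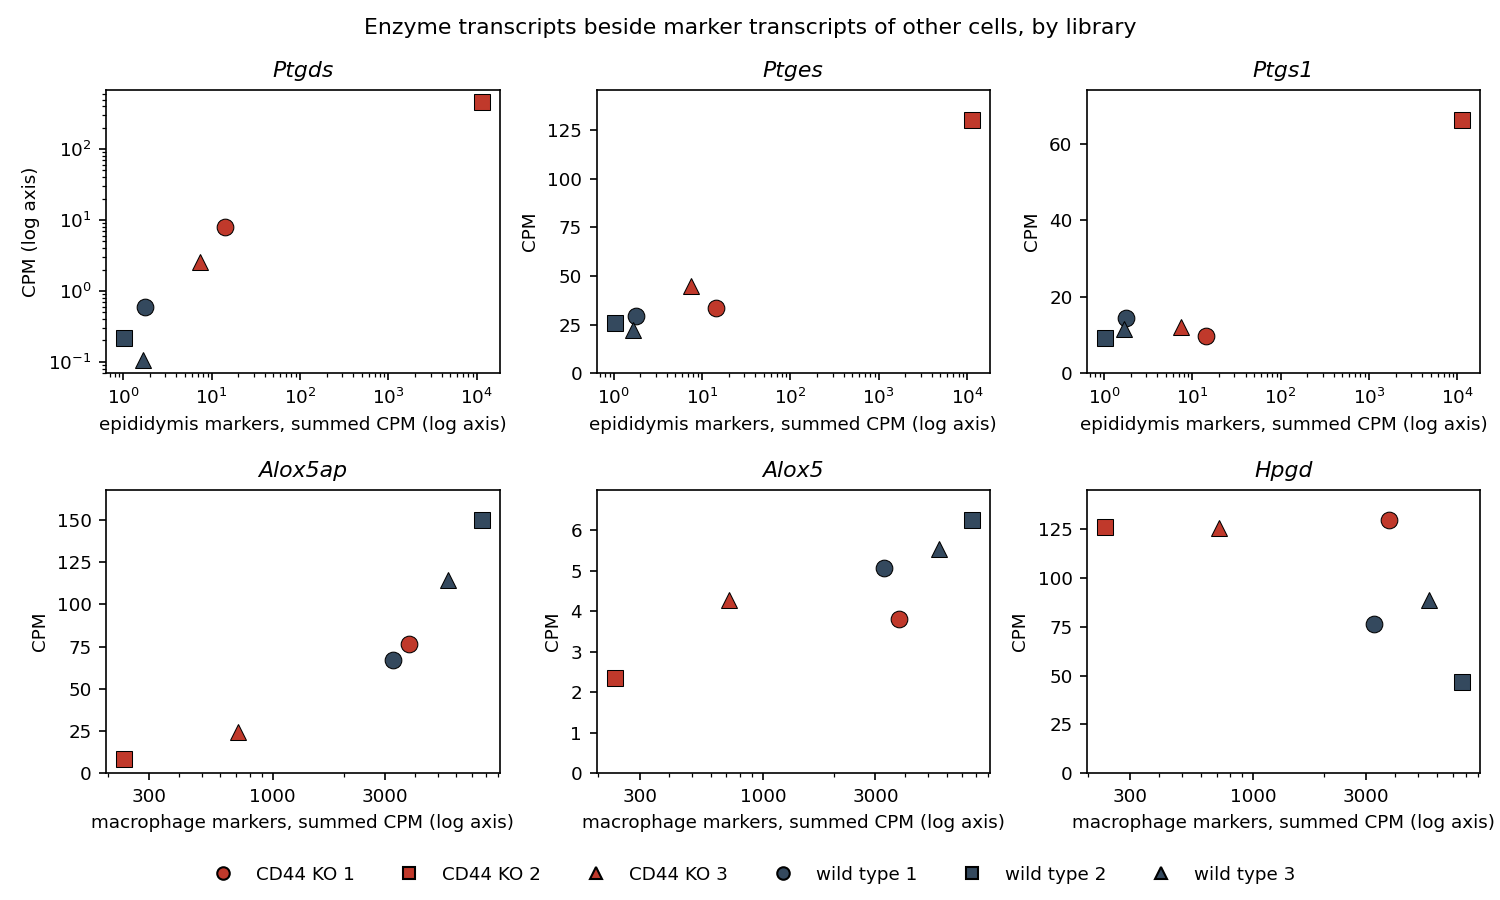
CPM of 6 enzyme transcripts against the summed CPM of marker transcripts in the same library, epididymis markers in the upper row and macrophage markers in the lower row, on logarithmic x axes. The Ptgds y axis is logarithmic and the others start at 0. Ptgds, Ptges and Ptgs1 are highest in CD44 KO replicate 2, where epididymis markers sum to 11362 CPM, Alox5ap has the same library order as the macrophage markers, and Hpgd lies near 125.5 to 129.8 CPM in CD44 KO at all 3 macrophage marker levels.

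Ltc4s, which joins glutathione to leukotriene A4 to form leukotriene C4 (chromosome 11, 50236461 to 50238616), had the highest median level per length in both genotypes. It had 59.1, 43.2 and 71.7 CPM in CD44 KO and 122.5, 56.7 and 86.6 CPM in wild type. Wild type replicate 2 lay below CD44 KO replicates 1 and 3, so the groups overlapped. Its log2 fold change was -0.61 (SE 0.32, 95% interval -1.51 to 0.28, edgeR adjusted p 0.236), and without wild type replicate 1 it was -0.29.

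The order of Ltc4s within each genotype did not follow the 8 macrophage markers given above or the mast cell markers. Mast cell markers (7 genes, 6 tested, 0 called) summed to 46.6, 21.6 and 21.9 CPM in CD44 KO. Kit alone made up 20.3 CPM of the sum in CD44 KO replicate 2. In wild type the sums were 38.1, 194.7 and 76.0 CPM, with the highest value in the library with the least Ltc4s. Adipocyte markers summed to 34520, 28622 and 46858 CPM in CD44 KO replicates 1 to 3 and to 27322, 9981 and 16998 CPM in wild type replicates 1 to 3. Within each genotype, though not between them, this is the order of Ltc4s. The neutrophil markers given above had that order too, as did 6 markers of large peritoneal macrophages. The latter summed to 53.0, 51.2 and 86.4 CPM in CD44 KO and to 62.8, 48.7 and 55.1 CPM in wild type. These 6 markers disagreed, with 3 positive and 3 negative log2 fold changes, 1.51 for Gata6 and -1.47 for Prg4 among them. Icam2 was the most abundant of the 6 in every library. In wild type Gata6 had 6.19, 5.23 and 4.07 CPM and Prg4 had 6.54, 12.6 and 13.0 CPM, neither in the order of Ltc4s. The part of any of these cell types in the Ltc4s level was not tested. Annotated antisense transcripts cover 26.4% of the exon bases of Ltc4s and 13.3% of those of Alox5ap, and it is not given whether counting used strand, so reads from either strand cannot be told apart there.

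The 12- and 15-lipoxygenases oxidise arachidonic acid at other positions. Alox12, known as the platelet-type 12-lipoxygenase (chromosome 11, 70241457 to 70255353), was the most evenly separated of the enzymes. It had 86, 92 and 91 expected counts in CD44 KO and 37, 41 and 33 in wild type. As CPM this was 5.10, 5.53 and 5.89 in CD44 KO, against 2.18, 2.21 and 1.72 in wild type. Every CD44 KO library was above every wild type library, and the SD was 0.393 CPM in CD44 KO and 0.274 CPM in wild type.

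The fitted fold of Alox12 was 2.70 (95% interval 1.58 to 4.59, log2 fold change 1.43, SE 0.28), with an edgeR adjusted p of 0.0522. Leaving out any 1 library gave log2 fold changes of 1.32 or more, with adjusted p of 0.0366 to 0.260, under the threshold only without CD44 KO replicate 1. DESeq2 called it (adjusted p 0.000637), as did limma on log2(FPKM + 0.1) and log2(FPKM + 1) (adjusted p 0.0460 and 0.0388). In the authors' deposited table its log2 fold change is 1.40 with an adjusted p of 0.000755. The platelet markers (6 genes, 4 tested, 0 called) summed to 52.7, 25.3 and 32.7 CPM in CD44 KO and 54.0, 56.9 and 71.3 CPM in wild type, with Pf4 the most abundant. Of the 4 tested, 3 had positive log2 fold changes, and the part of platelets in the Alox12 level was not tested.

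Alox15, the enzyme that makes 12- and 15-hydroperoxy lipids in mouse leukocytes (chromosome 11, 70344152 to 70352031), lies 0.103 Mb from Alox12 by their start positions. It had 7, 3 and 4 expected counts in CD44 KO and 0, 6 and 0 in wild type, too few to pass the filter, so it was not tested. At 3 counts, the level that a count of 0 allows, its upper limit in wild type replicates 1 and 3 is 0.177 and 0.157 CPM. A difference between the genotypes was not detectable at this depth.

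Sequence shared with other genes, whose reads the counting could split, was small for most of the enzymes. Of the stretches of 50 bases in their annotated transcripts, 0% were shared with another gene's transcripts for Ptgs2, Ptgds, Ptges, Hpgd, Alox5 and Alox15. Alox12 shared 0.372%, Ptgs1 2.63%, Alox5ap 6.80% and Ltc4s 15.2%, the last 3 all with antisense or unclassified transcripts at the same place. Ptgds, Ptges and Ptgs1 lie on chromosome 2, as does Cd44, whose annotated start is 77.3, 71.9 and 66.6 Mb from theirs.

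The transcripts whose levels over the 6 libraries were most like those of an enzyme were found by the root mean square difference of centred log2 CPM, among tested genes averaging 5 CPM or more. For Alox12 these were Ttc8, Por and Tef, differing by 0.122 to 0.131 on the log2 scale. Those nearest to Hpgd were Acp6, Rnf113a2 and Nipsnap1 (0.129 to 0.155), and those nearest to Alox5ap were Tnfsf13, Dok2 and Rgs14 (0.114 to 0.154). The genes nearest to Ptgds were Cdh16, Pou3f3 and Kcnk1, which differed by 0.784 to 0.827. Their log2 fold changes were 9.87, 9.41 and 9.05, against 8.997 for Ptgds. The measure is not scaled to the range of a gene, and Ptgds had the widest range of the enzymes. Its larger differences therefore do not show a poorer match. Nearest to Alox5 were H2-T23, Nfkb2 and Rps6kc1 (0.0596 to 0.0991), and to Ltc4s Slc25a1, Inhbb and Cox19 (0.0802 to 0.107). Ptges had St6galnac2, Arrdc2 and Myo6 (0.117 to 0.162), Ptgs1 had Sytl4, Tpmt and Prrg1 (0.0975 to 0.1805), and Ptgs2 had Zfp560, Smad1 and Wasl (0.0559 to 0.0654). Such matches over 6 libraries are a description.

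Other genes that release arachidonic acid, convert it or receive its products were listed as 58 rows of the table, of which 42 were tested. Among them edgeR called 1 higher, Ggt1, and 1 lower, Ephx1, which is 4.76% beside the 2.62% of all genes. The median log2 fold change of the 42 was -0.46. At an unadjusted edgeR p under 0.05, 6 of the 42 were higher and 12 lower, beside 16.3% and 14.7% of all genes. The share higher was thus no greater than among all genes, and the share lower was greater, a difference that was not tested. Calls of these genes without CD44 KO replicate 1, given below, come from a fit that called 16.8% of all genes, and calls by DESeq2 from one that called 19%.

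**Figure D4:**
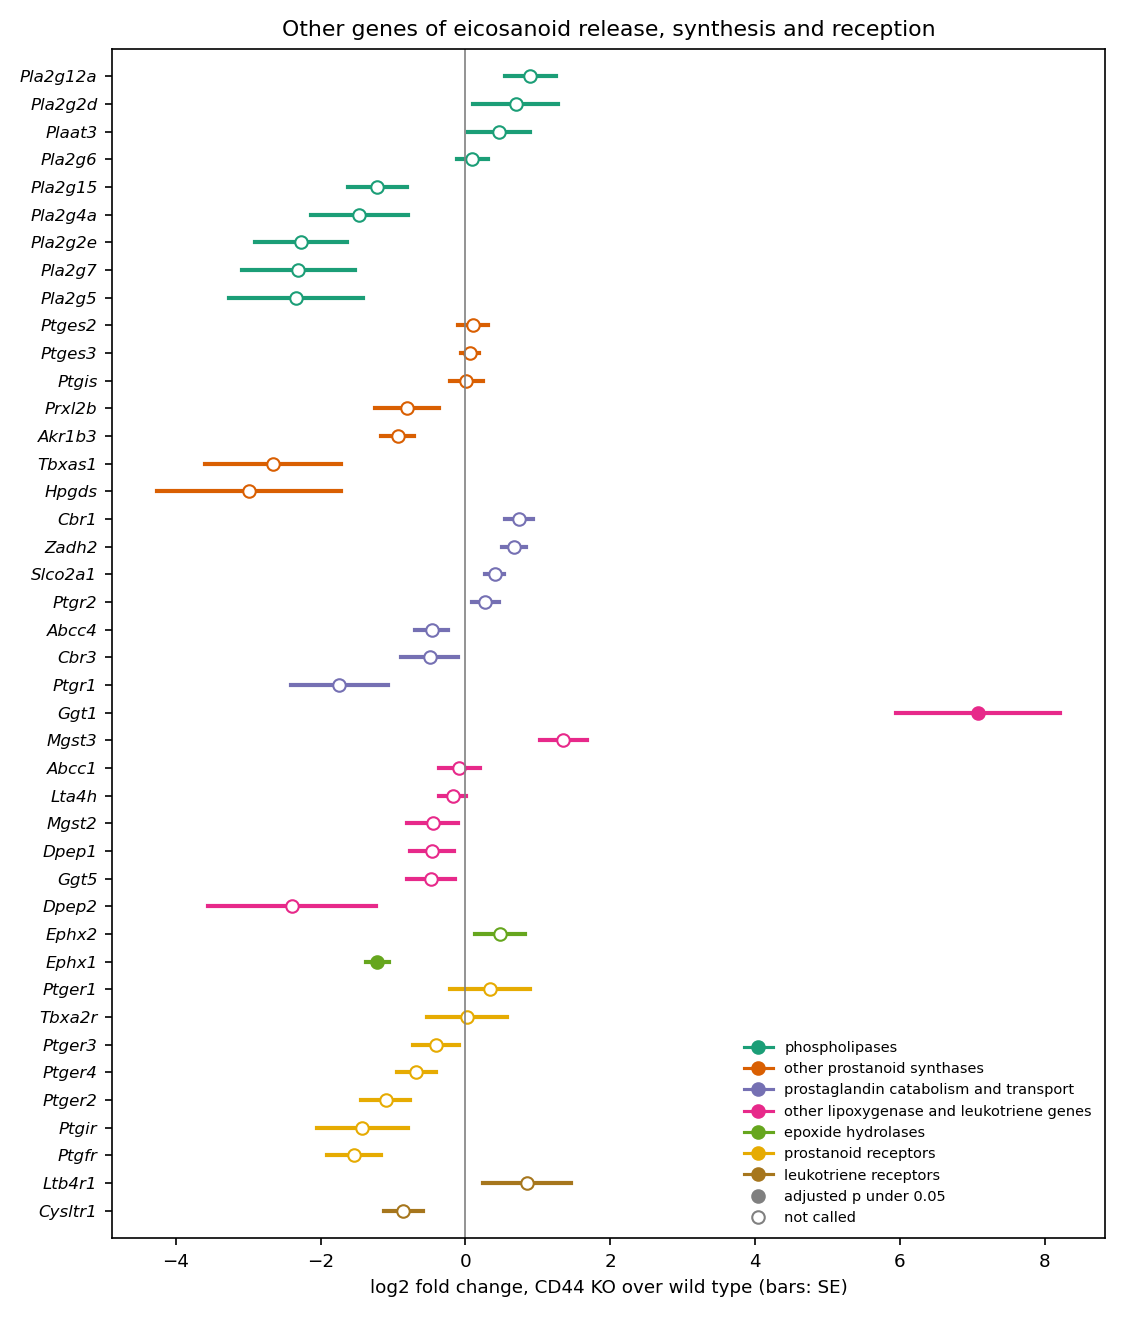
Log2 fold changes of CD44 KO over wild type with SE for the 42 tested genes of eicosanoid release, synthesis, clearance and reception, coloured by role, with filled points for adjusted p under 0.05 in edgeR. Ggt1, above 0, and Ephx1, at -1.22, are the filled points, and 25 of the 42 values lie below 0.

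Ephx1, the microsomal epoxide hydrolase (chromosome 1, 180976210 to 181020904, with a pseudogene over 3.69% of its exon bases), fell to 81.9, 88.8 and 77.3 CPM in CD44 KO, against 223, 179 and 175 CPM in wild type. The groups were far apart relative to their spread, and the log2 fold change was -1.22 with an SE of 0.16 and an edgeR adjusted p of 0.0309. It was called in 8 of 13 alternative fits. Leaving out CD44 KO replicate 2, CD44 KO replicate 3, wild type replicate 2 or wild type replicate 3 ended the call (adjusted p 0.0611, 0.114, 0.123 and 0.194). Ggt1, which can remove glutamate from leukotriene C4, had 122, 144 and 27 counts in CD44 KO and 0, 2 and 0 in wild type. Its log2 fold change was 7.07 (SE 1.14, edgeR adjusted p 0.0397). Ggt1 was called in 6 of 13 alternative fits, of those leaving out 1 library only in that without CD44 KO replicate 1. Leaving out CD44 KO replicate 2 therefore ended the call.

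Phospholipases showed values on both sides of 0. Of 9 tested, 0 were called by edgeR, and 1 was higher and 4 lower at an unadjusted p under 0.05, with a median log2 fold change of -1.21. The lowest p belonged to Pla2g2e, a secreted phospholipase, with 3.44, 1.08 and 1.68 CPM in CD44 KO and 17.3, 4.85 and 7.88 CPM in wild type (log2 fold change -2.27, SE 0.63, edgeR adjusted p 0.0882). Pla2g15, a lysosomal phospholipase, had a log2 fold change of -1.21 (SE 0.41, adjusted p 0.115). Both were called lower without CD44 KO replicate 1 and by DESeq2 (adjusted p 0.0407 and 0.00598 for Pla2g2e, 0.0279 and 0.0294 for Pla2g15).

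The remaining prostanoid synthases were likewise uncalled by edgeR, with 7 tested, 0 higher and 2 lower at an unadjusted p under 0.05, and a median of -0.80. Akr1b3, an aldose reductase that can form prostaglandin F2 alpha, had 182, 106 and 138 CPM in CD44 KO, against 250.4, 274 and 289 CPM in wild type (log2 fold change -0.93, SE 0.23, edgeR adjusted p 0.0739). Tbxas1, the thromboxane synthase, had 39.5, 3.36 and 7.06 CPM in CD44 KO and 58.3, 149.99 and 107 CPM in wild type (log2 fold change -2.66, SE 0.94, adjusted p 0.125). The library order of Tbxas1 in CD44 KO, highest in replicate 1 and lowest in replicate 2, was that of Alox5ap, Hpgds and the macrophage markers. Both Akr1b3 and Tbxas1 were called without CD44 KO replicate 1 (adjusted p 0.0274 and 0.0209) and by DESeq2 (adjusted p 0.00412 and 0.0104).

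Genes that clear or carry prostaglandins numbered 7 tested, with 0 called by edgeR, 3 higher and 1 lower at an unadjusted p under 0.05. Zadh2, a prostaglandin reductase, and Cbr1, a carbonyl reductase, had log2 fold changes of 0.68 (SE 0.17) and 0.74 (SE 0.19), with edgeR adjusted p of 0.0739 and 0.0796. DESeq2 called both (adjusted p 0.0185 and 0.0196), and without CD44 KO replicate 1 edgeR called Cbr1 (0.91, adjusted p 0.0248). Cbr1 stood at 48.9, 75.9 and 70.0 CPM in CD44 KO and 41.5, 36.7 and 38.4 CPM in wild type. In both genes, as in Hpgd, every CD44 KO library was above every wild type library.

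Receptors for prostanoids (7 tested, 0 called by edgeR, 0 higher and 3 lower at an unadjusted p under 0.05) had a median of -0.68. Ptgfr, the prostaglandin F receptor, had 1.19, 1.26 and 0.906 CPM in CD44 KO and 3.95, 3.29 and 2.56 CPM in wild type (log2 fold change -1.54, SE 0.37, edgeR adjusted p 0.0708), and was called by DESeq2 (adjusted p 0.00773). Ptger2, a prostaglandin E2 receptor, had 7.72, 3.24 and 4.79 CPM in CD44 KO and 11.9, 10.5 and 11.4 CPM in wild type (log2 fold change -1.10, SE 0.34, adjusted p 0.102). DESeq2 called it (adjusted p 0.0314), as did edgeR without CD44 KO replicate 1 (-1.49, adjusted p 0.0275). Of 2 tested leukotriene receptors, the cysteinyl leukotriene receptor Cysltr1 had 8.43, 4.74 and 5.37 CPM in CD44 KO and 11.8, 10.3 and 11.5 CPM in wild type (log2 fold change -0.86, SE 0.27, adjusted p 0.104). Cysltr1 was called by DESeq2 (adjusted p 0.0436), by limma on log2(FPKM + 0.1) and log2(FPKM + 1) (adjusted p 0.0496 and 0.0464) and without CD44 KO replicate 1 (edgeR adjusted p 0.0313). The leukotriene B4 receptor Ltb4r1 stood at 0.85 (SE 0.61, adjusted p 0.364) with overlapping groups.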

How the data were processed

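RNA of epididymal fat was enriched with oligo(dT) beads and sequenced on a NovaSeq 6000, per the labels' protocols. HISAT2, StringTie 1.3.1, RSEM and DESeq2 are named, without roles, per the submitters' processing notes; not given in the sources used here are build, annotation and strand use. The authors deposited expected counts, unscaled, of which 7.57% to 8.30% per library are not whole, and FPKM rounded to 2 decimals. The authors' comparison table repeats those counts as whole-number counts (0 differ) and adds a log2 fold change from mean FPKM, p-values and adjusted p-values.

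After rounding, the expected counts entered edgeR 4.0.16 (R 4.3.3): filterByExpr, TMM, robust quasi-likelihood F-test, CD44 KO over wild type, Benjamini-Hochberg adjustment over 13829 genes. The test was run on simulated data with the same dispersion (spread between libraries relative to the mean) for every gene and no library that stood apart. That simulation therefore does not show how the test performs on libraries like these. SE is the absolute log2 fold change over the square root of F, and intervals use 4 residual degrees of freedom, so they can differ from the p. Limits for 0 counts cover counting error only. Positions are from GENCODE M21 by identifier. Alternatives were DESeq2 1.42.0, limma 3.58.1 on FPKM, other scalings, no filter, a replicate block and leaving out each library.

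Same-numbered libraries did not deviate from their group means together (correlations across genes -0.32, -0.22 and -0.02), so the replicate numbers were not taken as pairs. The members and lists were chosen with earlier results of these data known. Named genes are all 10 enzymes, the pathway genes called, otherwise up to 2 of lowest p per role, and 3 genes nearest to each tested enzyme.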

Additional observations from a re-analysis of the deposited data

How the results depend on the processing

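Scaling by DESeq2 size factors or by total count changed no call of an enzyme. The count of enzymes called, 0 by edgeR, was 3 by DESeq2 and 1 by limma on log2(FPKM + 0.1) and 1 on log2(FPKM + 1), and 0 to 4 when 1 library was left out. Pathway genes called, 2 by edgeR, were 14 by DESeq2 and 0 to 14 when 1 library was left out. All genes called, 362 by edgeR, were 230 without a filter on low counts, 2915 by DESeq2 (50.6% of them higher, against 66.3% by edgeR) and 0 to 2370 when 1 library was left out. Ptgs1 had log2 fold changes of -0.10, a reversal, to 1.73 when 1 library was left out, the lowest without CD44 KO replicate 2 and the highest without CD44 KO replicate 1; the cause was not tested. No other enzyme changed sign in any alternative. With the replicate block, 0 genes, 0 pathway genes and 0 enzymes were called; the numbers do not pair the libraries, and libraries did not correlate best with their own number. Depth limits Ptgs2 and Alox15, at 16 counts or fewer in every library, and 3 libraries per genotype limit the rest. The libraries also differed in epididymis and macrophage markers, and the part of these tissues and cells in the enzyme levels was not tested.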
